A study of Mus musculus with 13 samples.

Results

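The expression of 10 genes of ATP and adenosine signaling was examined in 13 aortas of angiotensin II (AngII)-infused ApoE-/- mice, a murine model of abdominal aortic aneurysm. The genes were chosen by name, as the components through which ATP released under the action of the cytokine-like protein FAM3A could act, and they are 10 of the 54532 genes listed in the deposited table. They comprise 3 metabotropic nucleotide receptors (P2ry1, P2ry2 and P2ry6), 3 ATP-gated ion channels (P2rx1, P2rx4 and P2rx7), 2 enzymes of the cell surface that degrade nucleotides (Entpd1 and Nt5e), 1 ATP release channel (Panx1) and 1 adenosine receptor (Adora2a).

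Extracellular ATP leaves cells through channels such as pannexin or by vesicle release, and it acts on receptors of the P2 families. Receptors of the P2X family open a cation pore, and those of the P2Y family couple to G proteins. Ectonucleotidases then remove phosphates from ATP until adenosine remains, which binds receptors of its own. In the arterial wall this system is known for control of smooth muscle tone, platelet function and the response of macrophages to tissue injury.

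The mice all lacked ApoE and received AngII from a subcutaneous pump, at 1000 ng/kg/min for up to 28 days from the age of 10 weeks according to the methods. For the 6 Ad-sham aortas the mice received an adenovirus with an empty vector. For the 7 Ad-FAM3A aortas they received the same vector carrying mouse Fam3a behind the EF1A promoter, which is active in many cell types. Both viruses were given by 5 tail vein injections, and neither was directed to one cell type. Each aorta was 1 library, and no group without AngII or without virus was sequenced. The methods describe male or female mice. Xist did not exceed 6 counts in any aorta, and the Y-linked gene Ddx3y lay between 79.6 and 174 CPM (counts scaled to library size) in all 13.

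The promoters of 4 of the 10 genes are shown because the results turn on them: P2rx1 and Entpd1 had the highest levels, P2rx4 the closest relation to a marker list, and P2ry2 values in separate high and low sets of aortas. RefSeq start sites were given for 8 of the 10 genes, with 11 windows in all. The sequences are on GRCm38.p6, from 250 bases before the start to the start or to the first base of an annotated exon, and capitals mark GC boxes (GGGCGG on either strand). P2rx1 lies on the plus strand at chr11:72998895-72999102, Entpd1 on the plus strand at chr19:40659520-40659769 (its downstream start, inside the gene), P2rx4 on the plus strand at chr5:122707294-122707543 and P2ry2 on the minus strand at chr7:101012054-101012303 (also inside the gene as the deposited table bounds it). A further start of P2ry2, whose window overlaps the one shown and held 3 GC boxes, is not printed.
P2rx1: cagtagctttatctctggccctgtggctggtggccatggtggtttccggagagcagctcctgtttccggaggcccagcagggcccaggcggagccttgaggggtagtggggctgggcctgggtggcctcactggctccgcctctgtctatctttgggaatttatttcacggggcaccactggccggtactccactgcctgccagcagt
Entpd1: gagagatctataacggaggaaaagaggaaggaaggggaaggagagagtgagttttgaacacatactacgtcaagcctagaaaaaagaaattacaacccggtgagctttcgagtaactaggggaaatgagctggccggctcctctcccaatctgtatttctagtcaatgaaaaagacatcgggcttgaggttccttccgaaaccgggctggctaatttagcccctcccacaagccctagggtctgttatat
P2rx4: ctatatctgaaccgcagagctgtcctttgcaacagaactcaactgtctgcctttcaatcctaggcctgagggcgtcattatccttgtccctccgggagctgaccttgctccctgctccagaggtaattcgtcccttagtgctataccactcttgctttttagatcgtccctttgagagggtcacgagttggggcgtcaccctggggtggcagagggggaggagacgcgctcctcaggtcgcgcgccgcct
P2ry2: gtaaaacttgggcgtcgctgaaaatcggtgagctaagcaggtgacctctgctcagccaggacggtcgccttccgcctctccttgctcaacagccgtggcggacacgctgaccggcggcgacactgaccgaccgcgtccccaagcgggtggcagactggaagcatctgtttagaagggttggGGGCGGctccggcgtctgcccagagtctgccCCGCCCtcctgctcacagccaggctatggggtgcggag

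Of these 4 stretches, P2ry2 alone held a GC box. Windows of 300 bases also include 50 bases after the start, and the 11 windows belong to 8 of the 10 genes. GGGCGG was found on either strand in 6 of the 11, against 35.7% of all 32851 windows. Those 6 were of Nt5e, P2rx4, P2rx7, P2ry1 and P2ry2, with P2ry2 counted in both of its overlapping windows. The CArG box, the element bound by serum response factor in smooth muscle genes, was found in 0 of 11 windows and in 1.63% of all. The sequence GAGGAAGT, a sequence that factors of the Ets family can bind, was found in 1 window, that of P2rx7, and in 3.2% of all. TATAAA was in 0 of 11 (13.6% of all), TGAGTCA in 1 (5.2%) and CACGTG in 2 (7.15%), the overlapping windows of P2ry2, each on either strand. These are letters in a window, and no binding was measured.

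Total counts on genes ranged from 14481179 to 19797407 per aorta, and a gene without counts could still have a level of up to 3 counts, or 0.14 to 0.221 CPM. That bound covers counting error only. For the delivered gene, Fam3a, Ad-sham aortas measured 24.4 ± 4.27 CPM (SD, n = 6), compared with 24.0 ± 4.64 CPM (SD, n = 7) for Ad-FAM3A (log2 fold change -0.03 ± 0.16 SE, adjusted p = 0.971 by edgeR's quasi-likelihood test). Since Fam3a did not separate the groups, each direction below refers to the labels alone. All 8 smooth muscle and all 8 endothelial markers were detected in every aorta. No score of 15 cell type and tissue marker lists passed the comparison of the groups (exact permutation p from 0.156 to 0.888). By gene, however, 5 of 5 B cell markers had a positive fold change with an unadjusted p under 0.05 by edgeR (median log2 fold change 2.29). Of all genes tested, 2.98% were higher and 2.93% lower at that p. All 6 T cell markers had a positive fold change (median 1.26), with 0 of 6 at that p. Adipocyte markers were lower in 6 of 6 genes (2 at that p) and brown fat markers in 4 of 4 (2 at that p, median -0.77). Endothelial markers had 1 of 8 at that p. Ad-FAM3A6 and Ad-FAM3A7 stood apart in B cell markers, with mean log2 CPM of 8.21 and 6.78 against at most 3.83 in the other aortas.

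None of the 10 purinergic genes passed the test of a difference between Ad-FAM3A and Ad-sham aortas. In bulk tissue, a difference in cell number and one in RNA per cell cannot be told apart. All 10 passed the filter on low counts. Of them 6 had a positive and 4 a negative log2 fold change, with a median of 0.03 against 0.0 for the 15811 genes tested, and a range from -0.36 for Adora2a to 0.48 for Nt5e. By edgeR's quasi-likelihood test 0 of 10 was called (an adjusted p below 0.05 together with a log2 fold change beyond 1 or -1), as were 0 of 15811 genes (0.0%). DESeq2 called 10 genes of the whole table, limma-voom called 0, and neither called any of the 10. At an unadjusted p under 0.05 the count was 0 of 10 with edgeR, against 5.91% of all genes (2.98% higher and 2.93% lower). The groups overlapped for each of the 10 genes, whereas they did not overlap for 0.0949% of all genes. The smallest adjusted p among the 10 was 0.812. The 95% intervals of the fold changes lay between -1 and 1 for 7 of the 10 genes. The exceptions were P2rx1, Nt5e, and Entpd1, whose upper bound was 1.0.

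**Figure D1:**
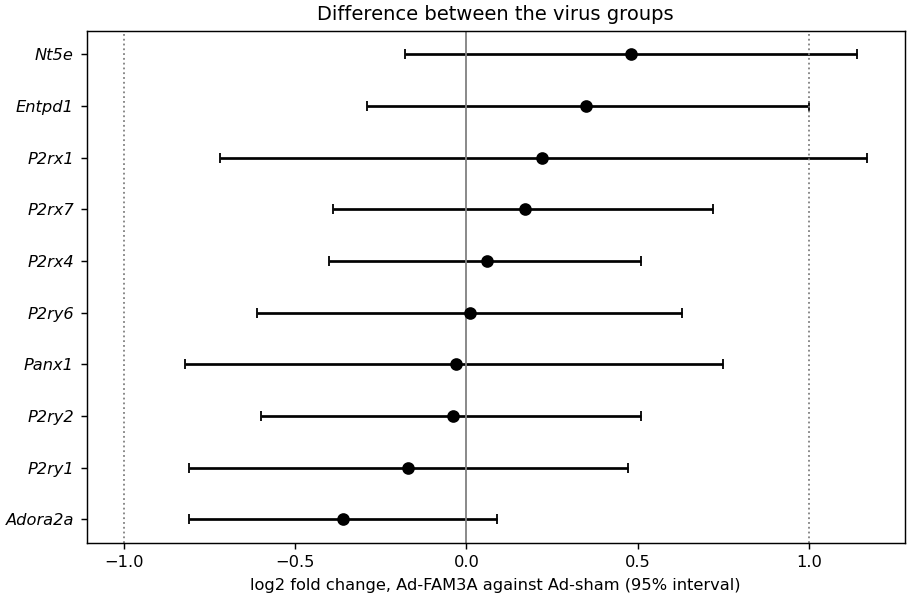
Log2 fold change of each gene, Ad-FAM3A (n = 7) against Ad-sham (n = 6), as points with the 95% interval of edgeR's fit as bars; dotted lines mark a log2 fold change of 1 in either direction. Each interval spans 0, and the estimates run from -0.36 for Adora2a to 0.48 for Nt5e.

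Levels differed far more between the genes than between the groups. On a scale per kilobase of gene length (RPKM, from counts scaled to library size), Entpd1 had the highest mean level over the 13 aortas, 34.1 ± 13.4 (SD, n = 13), followed by P2rx1 at 25.1 ± 16.8 and P2ry6 at 11.2 ± 4.2. P2rx4 had a level of 5.95 ± 1.6 RPKM, Adora2a 4.01 ± 1.18, P2ry2 3.84 ± 1.21 and P2rx7 3.24 ± 1.02. The lowest levels per length were those of Nt5e at 2.43 ± 1.06 RPKM, Panx1 at 1.74 ± 0.819 and P2ry1 at 1.16 ± 0.419. The ranges of mean ± SD overlapped for every pair of neighbors in this order. Within single aortas, P2rx1 exceeded P2ry6 in 13 of 13 aortas and P2ry6 exceeded P2rx4 in 13 of 13. Entpd1 exceeded P2rx1 in 10 of 13, P2rx4 exceeded Adora2a in 11, P2ry2 exceeded P2rx7 in 8, and P2rx7 exceeded Nt5e in 10. Nt5e exceeded Panx1 in 9, and Panx1 exceeded P2ry1 in 10. Adora2a exceeded P2ry2 in 6 aortas only. The authors' mean FPKM, of the same aortas, placed these neighbors in opposite orders in the 2 groups (Adora2a 4.51 and P2ry2 3.84 in Ad-sham, 3.56 and 3.78 in Ad-FAM3A). The other 8 genes had the same rank by that FPKM. The order depends on the deposited gene lengths. In CPM, not scaled to length, mean P2rx4 (40.9 in Ad-sham and 42.6 in Ad-FAM3A) lay above mean P2ry6 (32.2 and 32.4).

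**Figure D2:**
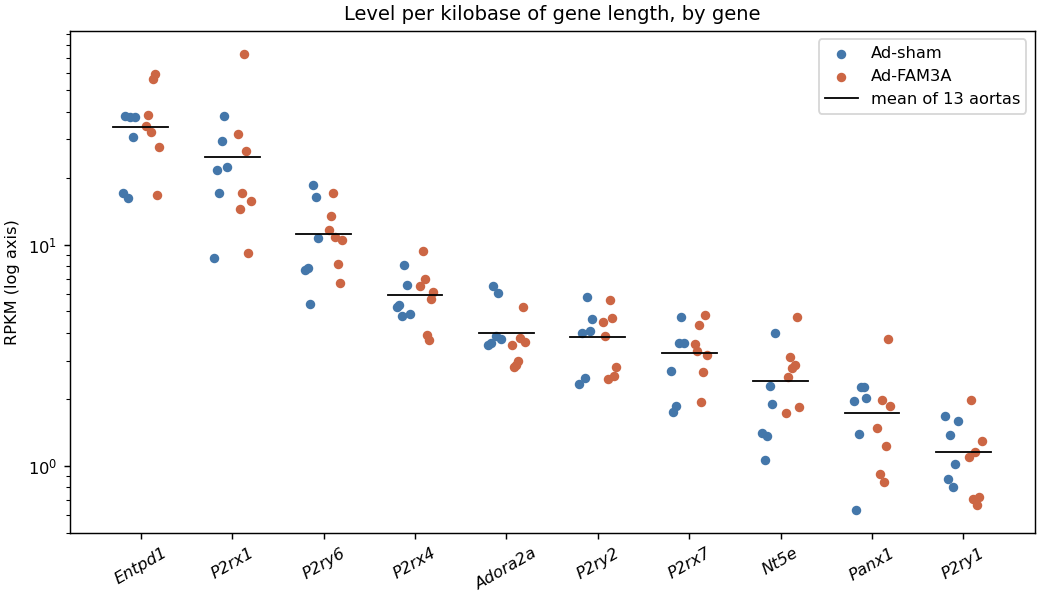
Level of each gene per kilobase of gene length (RPKM, log axis) in the 6 Ad-sham and 7 Ad-FAM3A aortas, 1 point per aorta, with the mean of the 13 aortas as a line. Genes are ordered by that mean, from 34.1 for Entpd1 to 1.16 for P2ry1, and the points of neighboring genes overlap.

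**Figure D3:**
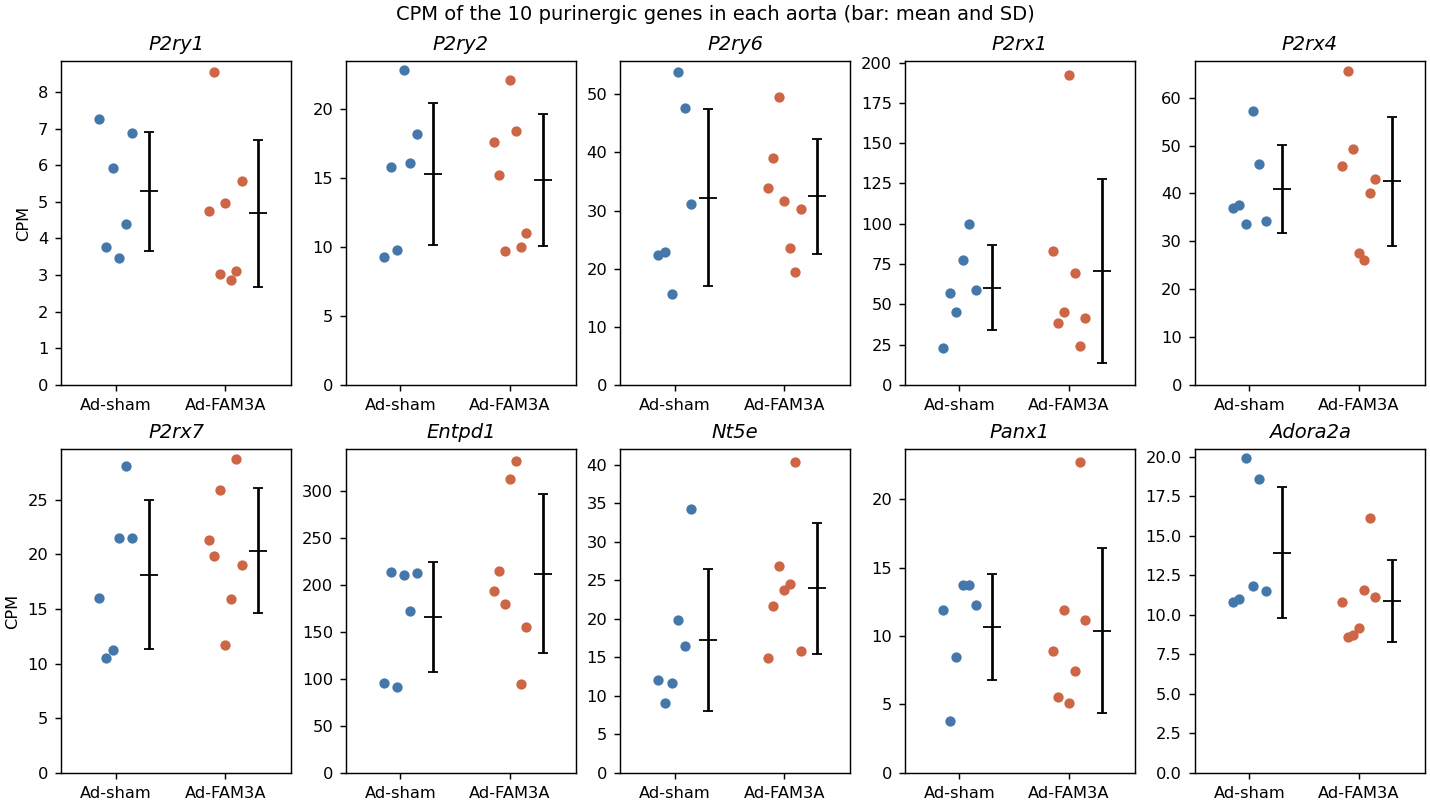
CPM of the 10 genes by virus group, 1 point per aorta on an axis that starts at 0, with the mean and SD of each group beside the points (6 Ad-sham, 7 Ad-FAM3A). The groups overlap in every panel, and P2rx1 holds 1 high aorta, Ad-FAM3A4 at 192 CPM.

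Among the ATP-gated channels, P2rx1 encodes the channel known for the contraction of arterial smooth muscle by ATP released from sympathetic nerves (ENSMUSG00000020787, GRCm38 chr11:72999103-73015200, plus strand). Its expression in the 6 Ad-sham aortas had a lowest value of 22.9, a median of 58.0 and a highest value of 100 CPM, and the 7 Ad-FAM3A aortas had 24.2, 45.1 and 192 CPM. Ad-FAM3A4 was the highest and Ad-sham1 the lowest of all, and 6 of 7 Ad-FAM3A aortas lay within the Ad-sham range. The log2 fold change was 0.22 ± 0.44 SE (95% interval -0.72 to 1.17, adjusted p = 0.918 by edgeR; exact permutation p = 0.919), and without Ad-FAM3A4 it was -0.25. P2rx1 was the most variable of the 10 genes, with a highest value 8.38 times the lowest and a coefficient of variation of 67.1% over the 13 aortas.

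P2rx4 encodes a channel of macrophages and endothelial cells that is sensitive to low ATP (ENSMUSG00000029470, chr5:122707544-122729738, plus strand). Its lowest, median and highest values were 33.6, 37.2 and 57.2 CPM in Ad-sham and 26.2, 43.1 and 65.7 CPM in Ad-FAM3A aortas. The Ad-FAM3A aortas held both the highest value (Ad-FAM3A2) and the 2 lowest (Ad-FAM3A5 and Ad-FAM3A4), so that the ranges overlapped widely. With a log2 fold change of 0.06 ± 0.21 SE, P2rx4 did not pass the test (95% interval -0.4 to 0.51, adjusted p = 0.957 by edgeR). P2rx4 had the smallest coefficient of variation of the 10 genes, 26.9%.

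P2rx7 encodes the channel that opens at high ATP and is known for activation of the inflammasome (ENSMUSG00000029468, chr5:122643911-122691432, plus strand). It lies 16111 bases from P2rx4 on the same strand. Ad-sham aortas had 10.5, 18.7 and 28.1 CPM as lowest, median and highest values, and Ad-FAM3A aortas 11.7, 19.8 and 28.7 CPM. The groups covered nearly the same range, with a log2 fold change of 0.17 ± 0.26 SE (95% interval -0.39 to 0.72, adjusted p = 0.897 by edgeR).

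Of the metabotropic receptors, P2ry6 was the most highly expressed per length. It encodes a receptor for UDP that couples to Gq (ENSMUSG00000048779, chr7:100937630-100974649, minus strand). It had 15.6, 27.0 and 53.8 CPM in Ad-sham and 19.4, 31.6 and 49.5 CPM in Ad-FAM3A aortas, as lowest, median and highest values. All 7 Ad-FAM3A values lay within the range of Ad-sham, and the log2 fold change was 0.01 ± 0.29 SE (95% interval -0.61 to 0.63, adjusted p = 0.994 by edgeR).

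P2ry2 encodes a receptor for ATP and UTP (ENSMUSG00000032860, chr7:100996568-101012866, minus strand) and lies 21918 bases from P2ry6. Ad-sham aortas ranged from 9.26 to 22.8 CPM with a median of 15.9, and Ad-FAM3A aortas from 9.74 to 22.1 CPM with a median of 15.2. The aortas fell into 5 low values, from 9.26 to 11 CPM, and 8 high ones, from 15.2 to 22.8 CPM. Ad-sham1, Ad-sham3, Ad-FAM3A3, Ad-FAM3A6 and Ad-FAM3A7 were the low ones, so that this split crossed the groups. P2ry2 had a log2 fold change of -0.04 ± 0.26 SE (95% interval -0.6 to 0.51, adjusted p = 0.973 by edgeR).

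P2ry1 encodes a receptor for ADP, best known from platelets (ENSMUSG00000027765, chr3:61002795-61008982, plus strand). It was the least expressed of the 10 genes, with 39 to 139 counts per aorta. Ad-sham aortas had 3.46, 5.16 and 7.27 CPM and Ad-FAM3A aortas 2.87, 4.74 and 8.55 CPM as lowest, median and highest values. The ranges overlapped, and the log2 fold change was -0.17 ± 0.3 SE (95% interval -0.81 to 0.47, adjusted p = 0.908 by edgeR).

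The first step of ATP removal is carried out by the product of Entpd1 (CD39), which converts ATP and ADP to AMP (ENSMUSG00000048120, chr19:40612366-40741602, plus strand). Ad-sham aortas had 90.9, 191 and 214 CPM as lowest, median and highest values, and Ad-FAM3A aortas 94.3, 193 and 332 CPM. The medians were alike, and 2 aortas, Ad-FAM3A5 at 332 and Ad-FAM3A4 at 312 CPM, exceeded all others. The low aortas, Ad-sham3, Ad-FAM3A6 and Ad-sham1 at 90.9, 94.3 and 95.2 CPM, were set apart from the other 10, which began at 155 CPM. The log2 fold change was 0.35 ± 0.3 SE (95% interval -0.29 to 1.0, adjusted p = 0.832 by edgeR; exact permutation p = 0.34). The pseudogenes Gm8783, with 10 to 35 counts per aorta, and Gm16027, with 0 to 4, overlap Entpd1, against 1440 to 4977 counts of Entpd1 itself. The annotated genes that overlap P2ry1, P2ry6 and P2rx7 had at most 4 counts in any aorta.

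Nt5e encodes CD73, which forms adenosine from AMP (ENSMUSG00000032420, chr9:88327197-88372092, plus strand). Ad-sham aortas had 9.09, 14.3 and 34.3 CPM as lowest, median and highest values, and Ad-FAM3A aortas 14.9, 23.8 and 40.4 CPM. All 7 Ad-FAM3A values lay above the Ad-sham median, but Ad-sham6, at 34.3 CPM, exceeded 6 of the 7. The log2 fold change of 0.48 ± 0.31 SE was the largest of the 10 genes and did not pass the test (95% interval -0.18 to 1.14, adjusted p = 0.812 by edgeR; exact permutation p = 0.121). It was 0.79 without Ad-sham6 (unadjusted p = 0.0107 by edgeR) and 0.3 without Ad-FAM3A6. Ad-sham6 had the highest endothelial score (7.75 mean log2 CPM) and a summed kidney marker level of 157 CPM. Ad-FAM3A6, the aorta with the highest Nt5e, had the lowest endothelial score (6.63) and 2.93 CPM of kidney markers. The part of these lists in the fold change of Nt5e was not tested. The score of adipocyte markers did not pass the comparison of the groups (exact permutation p = 0.282). By gene, 6 of 6 had a negative fold change (median -0.64 on the log2 scale). Of these, 2 had an unadjusted p under 0.05 by edgeR, against 2.93% of all genes lower at that p. Summed levels were 2860 to 8990 CPM in Ad-sham and 1870 to 5570 CPM in Ad-FAM3A aortas. The part of adipocyte markers in the values of Nt5e was not tested. The ratio of Entpd1 to Nt5e on the RPKM scale was 9.52, 14.1 and 36.3 in Ad-sham and 3.6, 15.3 and 20.9 in Ad-FAM3A aortas as lowest, median and highest values (exact permutation p = 0.673). Ad-sham2 had the highest ratio and Ad-FAM3A6, where Nt5e was highest and Entpd1 low, the lowest.

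Panx1 encodes a large-pore channel that releases ATP (ENSMUSG00000031934, chr9:15002128-15045478, minus strand). Ad-sham aortas had 3.82, 12.1 and 13.7 CPM and Ad-FAM3A aortas 5.08, 8.93 and 22.7 CPM as lowest, median and highest values. Of the Ad-FAM3A aortas, Ad-FAM3A6 alone lay above the Ad-sham median. For Panx1 the log2 fold change was -0.03 ± 0.37 SE (95% interval -0.82 to 0.75, adjusted p = 0.987 by edgeR) and -0.36 without that aorta, in which B cell markers were also highest.

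Adora2a encodes an adenosine receptor that couples to Gs and relaxes vessels (ENSMUSG00000020178, chr10:75316877-75334784, plus strand). Ad-sham aortas had 10.8, 11.7 and 19.9 CPM and Ad-FAM3A aortas 8.61, 10.8 and 16.1 CPM as lowest, median and highest values. A set of 3 aortas, Ad-sham3, Ad-sham5 and Ad-FAM3A6, lay at 19.9, 18.6 and 16.1 CPM, and the other 10 between 8.61 and 11.8 CPM. The log2 fold change of -0.36 ± 0.21 SE was the most negative of the 10 and did not pass the test (95% interval -0.81 to 0.09, adjusted p = 0.812 by edgeR; exact permutation p = 0.133).

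As the aorta is a mixed tissue, each gene was compared with the levels of 8 cell type marker lists across aortas. A list's level was the mean log2 CPM of its genes, and 80 relations were computed, with Benjamini-Hochberg adjustment over them. Where the values of a gene or list fell into separate clusters, as for Entpd1, P2ry2 and Adora2a, r was computed within the larger cluster only. After adjustment 2 of the 80 relations passed by Pearson's r, and 1 of them passed by Spearman's rho also. With all 13 aortas in 1 relation and clusters not separated, 5 of the 80 passed by both, namely P2rx4 with macrophage markers, P2rx1, Entpd1 and P2ry2 with smooth muscle markers (positive) and Nt5e with adipocyte markers (negative).

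P2rx4 followed the macrophage markers (Cd68, Adgre1, Csf1r, C1qa, C1qb, C1qc, Lyz2 and Mrc1), with Pearson's r of 0.91 over 13 aortas (permutation p = 2e-05, adjusted 0.0016) and Spearman's rho of 0.88 (permutation p = 0.00014, adjusted 0.0112). Without Ad-FAM3A2 and Ad-FAM3A4, the aortas farthest from the median of the list, r was 0.86. It was 0.91 among Ad-sham and 0.93 among Ad-FAM3A aortas, and r with each of the 8 marker genes was positive. Leaving out any 1 aorta gave r between 0.89 and 0.94. P2rx4 and the list were both highest in Ad-FAM3A2 and Ad-sham4, and Ad-FAM3A4 and Ad-FAM3A5 had the lowest P2rx4. Of the other nucleotide receptors, P2rx7 and P2ry6 had relations to this list that did not pass adjustment, with r of 0.64 for P2rx7 (permutation p = 0.0207, adjusted 0.236; rho 0.55, permutation p = 0.0552, adjusted 0.315) and 0.62 for P2ry6 (permutation p = 0.0264, adjusted 0.264; rho 0.62, permutation p = 0.0278, adjusted 0.242). Other lists gave coefficients of like size for these genes that did not pass either, with rho of 0.71 for P2rx7 and T cell markers (permutation p = 0.00843, adjusted 0.169) and r of 0.59 for P2ry6 and fibroblast markers (permutation p = 0.0349, adjusted 0.31). The differences between these coefficients were not tested.

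P2rx1 followed the smooth muscle markers (Myh11, Acta2, Cnn1, Smtn, Lmod1, Mylk, Des and Synpo2), with r of 0.86 over 13 aortas (permutation p = 0.00016, adjusted 0.0064) and rho of 0.78 (permutation p = 0.00259, adjusted 0.0691). Ad-FAM3A6 and Ad-sham1, at 7.41 and 7.71 mean log2 CPM, had the lowest smooth muscle levels and the lowest P2rx1, and Ad-FAM3A4, at 10.31, had the highest of both. Without Ad-FAM3A6 and Ad-sham1 r was 0.75. It was 0.86 among Ad-sham and 0.87 among Ad-FAM3A aortas. Smooth muscle markers were positive in fold change in 8 of 8 genes (median 0.22 on the log2 scale, summed levels of 3290 to 13900 CPM in Ad-sham and 2530 to 19900 CPM in Ad-FAM3A), and P2rx1 had 0.22, which was -0.25 without Ad-FAM3A4 and 0.06 by limma-voom. The part of smooth muscle markers in that value was not tested.

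Entpd1 was low in the same 2 aortas with the lowest smooth muscle levels and in Ad-sham3, and highest in Ad-FAM3A5 and Ad-FAM3A4. Among the 10 aortas of its larger cluster, r with smooth muscle markers was 0.77 (permutation p = 0.00852, adjusted 0.136) and rho 0.75 (permutation p = 0.0173, adjusted 0.231). Separating the clusters left out Ad-sham1 and Ad-FAM3A6, the aortas lowest in smooth muscle markers, which stayed in the relation of P2rx1, so the coefficients of these genes cover different aortas. With all 13 aortas in 1 relation, Entpd1 and smooth muscle markers passed adjustment by both coefficients. Within the cluster r was 0.5 without Ad-FAM3A4 and Ad-FAM3A7, and it was 0.18 among the 4 Ad-sham and 0.84 among the 6 Ad-FAM3A aortas of the cluster. Panx1 had the opposite sign, with r of -0.7 with smooth muscle markers over 13 aortas (permutation p = 0.00811, adjusted 0.136; rho -0.58, permutation p = 0.0417, adjusted 0.303) and -0.56 without the same pair of low aortas. It was -0.34 among Ad-sham and -0.92 among Ad-FAM3A aortas. Its r with T cell markers was 0.67 (permutation p = 0.0107, adjusted 0.142; rho 0.69, permutation p = 0.0117, adjusted 0.187), and 0.38 without Ad-sham4 and Ad-FAM3A6. Neither relation of Panx1 passed adjustment.

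The most negative coefficient was that of Nt5e with adipocyte markers, and it did not pass adjustment. Its r was -0.77 (permutation p = 0.00244, adjusted 0.0651) and rho -0.79 (permutation p = 0.00201, adjusted 0.0691), with a negative r for each of the 6 marker genes. It was -0.61 without Ad-sham1 and Ad-sham2, the aortas with the highest adipocyte levels. Among Ad-sham aortas r was -0.9 and among Ad-FAM3A aortas -0.51.

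**Figure D4:**
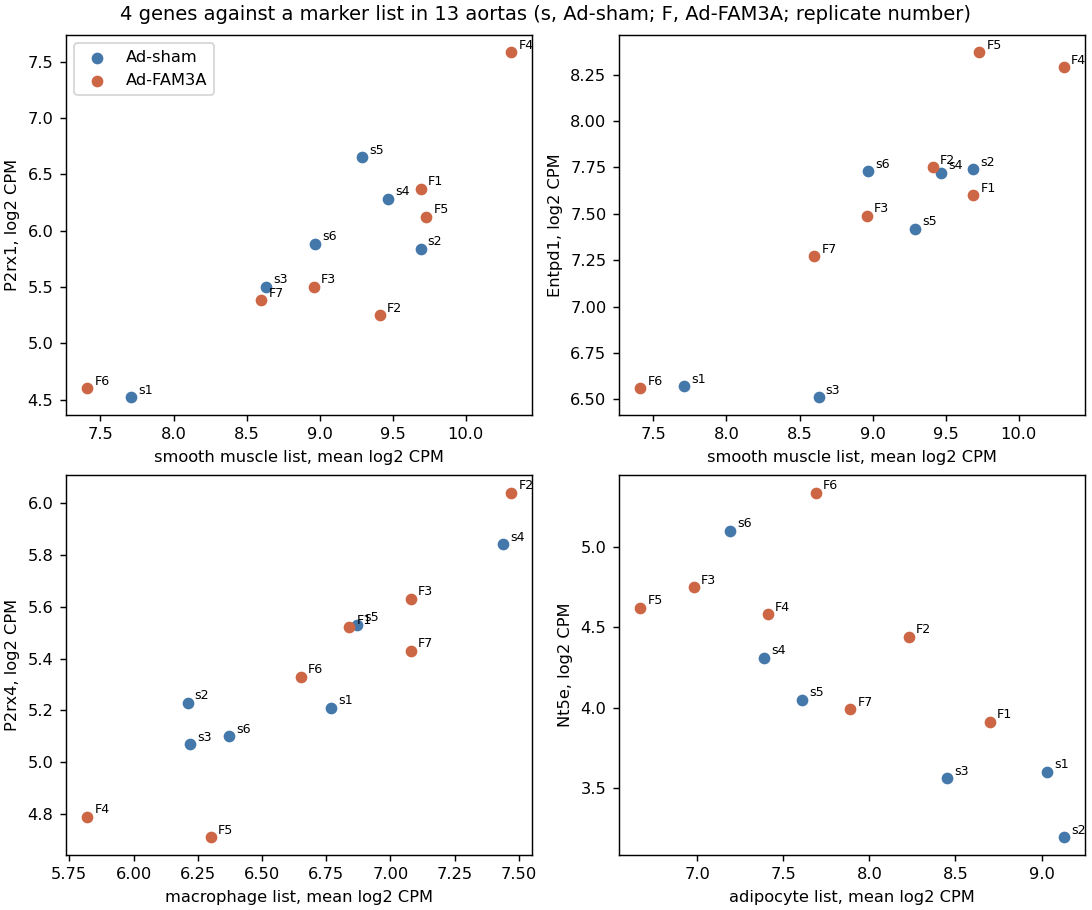
Level of P2rx1, Entpd1, P2rx4 and Nt5e (log2 CPM) against a marker list (mean log2 CPM of its genes), 1 point per aorta, with s for Ad-sham, F for Ad-FAM3A and the replicate number. P2rx1 and P2rx4 rise along their lists over the whole range (r of 0.86 and 0.91), Entpd1 has 3 separate low aortas, and r is -0.77 for Nt5e and the adipocyte list.

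**Figure D5:**
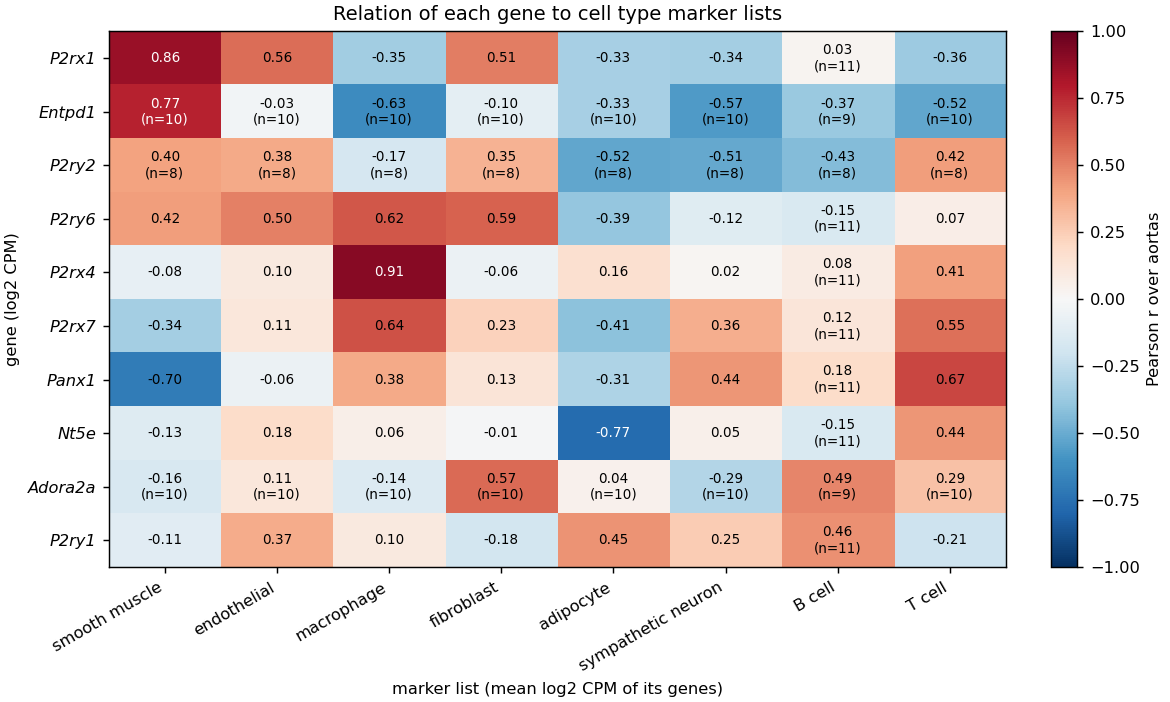
Pearson r between each of the 10 genes (log2 CPM) and 8 marker lists (mean log2 CPM), over 13 aortas or over the n printed where values formed clusters. The values run from -0.77 (Nt5e with adipocyte) to 0.91 (P2rx4 with macrophage), and 2 of the 80 passed adjustment by Pearson's r.

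Among the 45 pairs of the 10 genes, P2rx7 and Panx1 varied together most closely when clusters were separated. Their r was 0.78 (permutation p = 0.00165, adjusted 0.0742) and their rho 0.87 (permutation p = 0.00017, adjusted 0.00765), so that the rank relation alone passed adjustment over the 45 pairs. With clusters not separated, 2 of the 45 pairs passed by both coefficients, against 0 here. They were P2rx7 with Panx1, at r of 0.78, and P2ry2 with P2rx1, at r of 0.8, so that the former was then not the closest by r. For P2rx7 and Panx1, Pearson's r was 0.75 without Ad-sham2 and Ad-sham3, 0.83 among Ad-sham and 0.82 among Ad-FAM3A aortas. The 2 neighboring P2X genes on chromosome 5, P2rx4 and P2rx7, had r of 0.54 (permutation p = 0.0565, adjusted 0.367; rho 0.55, permutation p = 0.0528, adjusted 0.475). P2ry6 and P2rx4 had r of 0.63 (permutation p = 0.0225, adjusted 0.367; rho 0.69, permutation p = 0.0121, adjusted 0.272), which did not pass.

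The protein-coding genes whose levels were most like those of each gene were sought among 14111 genes by Pearson's r over the 13 aortas, as a description. For P2rx4 these were C1qc (0.931) and C1qb (0.907), which encode chains of complement C1q made by macrophages and belong to the list above, and Tspan4 (0.906). For P2rx1 they were Dlgap4 (0.938), Magi1 (0.923) and Foxf2 (0.921), for P2ry6 Rab31 (0.958) and Nucb2 (0.931), and for P2rx7 Arl4c (0.919), Lpcat2 (0.903) and Hgf (0.89). Panx1 was most like Ramp3 (0.96), Rassf5 (0.911) and Milr1 (0.911), and Nt5e most like Btbd19 (0.941), Prps2 (0.861) and Nup155 (0.857). P2ry1 had the lowest coefficients, with Glud1 (0.828), Il15 (0.81) and Serf1 (0.779). For the 3 genes whose aortas formed clusters no r is given. The closest genes were Pcdh7, Nexn, which encodes an actin-binding protein, and Efhd1 for Entpd1, then Cdyl, Fbxo34 and Irak2 for P2ry2, and Atg2a, Zfp36l1 and Zfp36l2 for Adora2a.

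The other genes of the pathway were read from a list of 51, of which 44 passed the filter. Of the 44, 20 had a positive and 24 a negative log2 fold change, with a median of -0.05, and 0 had an adjusted p under 0.05 by edgeR (smallest 0.81). At an unadjusted p under 0.05 there were 5 of 44, 2 higher and 3 lower, against 5.91% of all genes (2.98% higher and 2.93% lower), and none is called after adjustment. Without Ad-sham2 this count was 0 (4.54% of all genes), and without Ad-FAM3A6 it was 2 (5.38% of all genes).

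Among the other nucleotide receptors, P2ry13, an ADP receptor of myeloid cells, had a mean of 2.34 ± 0.658 CPM in the 6 Ad-sham aortas, against 7.79 ± 9.36 CPM in the 7 Ad-FAM3A aortas (SD). Its log2 fold change was 1.73 ± 0.72 SE (unadjusted p = 0.0308 and adjusted p = 0.81 by edgeR), but the exact permutation p was 0.355, and Ad-FAM3A7, at 22 CPM, was the highest. P2rx6, a subunit of P2X channels, had 4.8 ± 1.87 CPM in Ad-sham and 3.07 ± 0.813 CPM in Ad-FAM3A aortas, with 0 of 7 Ad-FAM3A values above the Ad-sham median (log2 fold change -0.64 ± 0.28 SE, unadjusted p = 0.0401, adjusted p = 0.81 by edgeR; exact permutation p = 0.0606). The lowest fold change of this group was that of P2rx2, an ATP-gated channel of neurons, at -1.35 ± 0.86 SE, with levels of 1.68 and 0.656 CPM near the limit of detection in some aortas. It was highest in Ad-sham5, the aorta with the highest sympathetic neuron score (7.1 mean log2 CPM). Ad-FAM3A3 had nearly the same score (7.08), but no Ad-FAM3A aorta exceeded 1.98 CPM of P2rx2. Sympathetic neuron markers had a negative fold change in 6 of 6 genes (median -0.64, summed levels of 60.7 to 1360 CPM in Ad-sham and 113 to 1510 CPM in Ad-FAM3A), and Schwann cell markers in 6 of 6 (median -0.6). None of these 12 markers had an unadjusted p under 0.05 by edgeR, against 5.91% of all genes. Their part in the values of neuronal genes was not tested. P2ry4, a receptor for UTP, had 0 counts in all 13 aortas.

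Adora1, an adenosine receptor coupled to Gi, had a mean of 36.5 ± 11.9 CPM in the 6 Ad-sham aortas, against 23.4 ± 7.79 CPM in the 7 Ad-FAM3A aortas (SD). The Ad-sham values ran from 24.7 to 51.5 CPM and those of Ad-FAM3A from 12.2 to 36.3 CPM, so that the groups overlapped. The log2 fold change was -0.64 ± 0.25 SE (unadjusted p = 0.0223, adjusted p = 0.81 by edgeR; exact permutation p = 0.0373). Adora1 is expressed in fat, and the adipocyte markers had a negative fold change in 6 of 6 genes, 2 of them at an unadjusted p under 0.05 by edgeR. Brown fat markers had one in 4 of 4 genes (median -0.77 on the log2 scale), 2 of them at that p. Of all genes, 2.93% were lower at that p. Their part in this result was not tested. Adora2b, the other adenosine receptor tested, had a log2 fold change of 0.05 ± 0.39 SE.

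Of 8 other nucleotide-hydrolyzing enzymes and their relatives tested, 6 had a negative fold change. Entpd5, a nucleoside diphosphatase of the endoplasmic reticulum, had 110 ± 31.7 CPM in Ad-sham and 83.1 ± 13.7 CPM in Ad-FAM3A aortas, with 0 of 7 above the Ad-sham median (log2 fold change -0.41 ± 0.18 SE, unadjusted p = 0.044, adjusted p = 0.81 by edgeR; exact permutation p = 0.105). The lowest and highest fold changes were those of Entpd3, -1.08 ± 1.05 SE, also highest in Ad-sham5, and Enpp2, which encodes autotaxin, 0.27 ± 0.35 SE. Entpd4 had at most 4 counts in any aorta, which alone does not show that it was absent.

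For ATP release, Slc17a9, the vesicular nucleotide transporter, had a mean of 1.39 ± 0.829 CPM in the 6 Ad-sham aortas, against 3.77 ± 4.2 CPM in the 7 Ad-FAM3A aortas (SD). All 7 Ad-FAM3A values lay above the Ad-sham median, and the highest, 13.1 CPM, was in Ad-FAM3A6 (log2 fold change 1.43 ± 0.59 SE, unadjusted p = 0.0289, adjusted p = 0.81 by edgeR; exact permutation p = 0.0554). B cell markers were highest in that aorta too, with a summed level of 9080 CPM against 40.7 to 131 CPM in Ad-sham aortas, and their part in this value was not tested. Panx2, a pannexin of the nervous system, had the lowest fold change among release genes, -0.77 ± 0.89 SE.

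Genes of adenosine handling had log2 fold changes from -0.34 ± 0.33 SE for the nucleoside transporter Slc29a2 to 0.27 ± 0.22 SE for Slc29a3, with 4 of 8 in each direction. The effectors of Gq-coupled receptors ran from -0.22 ± 0.18 SE for Plcb3 to 0.98 ± 0.7 SE for Plcb2, both phospholipase C beta genes, and the highest Plcb2 level, 28.2 CPM, was in Ad-FAM3A6. Inflammasome genes, downstream of the P2rx7 channel, ran from -0.3 ± 0.38 SE for the cytokine Il1b to 0.45 ± 0.41 SE for Il18. Of them 4 of 6 were positive and 0 of 6 had an unadjusted p under 0.05 by edgeR, against 5.91% of all genes.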

How the data were processed

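RNA of 13 aortas of ApoE-/- mice (6 Ad-sham, 7 Ad-FAM3A) was analysed. Reads were mapped by the authors to GRCm38 using Hisat2 (v2.0.5), counted with FeatureCounts (v1.5.0-p3) and deposited as whole-number counts per gene. They also deposited FPKM as 1 mean per group, used for ranks alone. The annotation release and strand setting are not given in the sources used here, so overlapping or duplicated genes are uncertain. Positions of the 10 genes matched GENCODE M21.

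Counts were scaled by TMM and filtered by filterByExpr, and groups were compared with edgeR's quasi-likelihood test (edgeR 4.0.16, R 4.3.3), adjusted over 15811 genes (Benjamini-Hochberg). Each SE came from the test's F and the fold change. DESeq2 1.42.0 and limma-voom (limma 3.58.1) were alternatives, as were other scalings and filters, the replicate block and leaving out aortas. For single values, a two-sided exact permutation test ran over 1716 splits of log2 CPM (prior count 1). Relations used 100000 two-sided permutations, and clusters were separated at a gap above 0.333 of the range of either measure, a rule chosen after the values were seen. In simulated data for this comparison, 170 of 200 genes changed by 2 on the log2 scale were recovered among 15811 genes.

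The members, the gene and marker lists and the rules were chosen with earlier results of these data known. Genes named were the 10 members, pathway genes with an unadjusted p under 0.05 or an extreme fold change in their role, and the 3 genes most like each member, of which 1 result is not reported here. P2ry4 and Entpd4 were named after their values were seen. The labels number the aortas but do not say that each came from another mouse, and p-values then measure the spread between these samples. Depth was 14481179 to 19797407 counts per aorta.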

Additional observations from a re-analysis of the deposited data

How the results depend on the processing

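Over 22 alternatives the 10 log2 fold changes gave 220 values, of which 23 had the opposite sign at 2 decimals and 2, both of P2ry6, rounded to 0.0, and 0 reached an adjusted p under 0.05 (smallest 0.585, largest size 0.79). With the replicate number as a block, P2ry2 was 0.04. Without both Ad-FAM3A6 and Ad-FAM3A7 it was 0.12, and Panx1 was 0.01 with library totals. Leaving out 1 aorta gave ranges of -0.15 to 0.1 for P2ry2, -0.13 to 0.22 for P2ry6, -0.25 to 0.43 for P2rx1, -0.06 to 0.18 for P2rx4 and -0.36 to 0.11 for Panx1, which include both signs. The ranges were -0.37 (without Ad-FAM3A2) to -0.06 (without Ad-sham1) for P2ry1, 0.05 (without Ad-sham2) to 0.34 (without Ad-sham5) for P2rx7, 0.22 (without Ad-FAM3A5) to 0.49 for Entpd1, 0.3 to 0.79 for Nt5e and -0.48 to -0.23 (without Ad-sham3) for Adora2a. The count of the 10 genes at an unadjusted p under 0.05 by edgeR was 1 with the replicate block (Nt5e, log2 fold change 0.64, unadjusted p = 0.00929, adjusted p = 0.978), 1 without both Ad-FAM3A6 and Ad-FAM3A7 (Adora2a, -0.52, adjusted p = 0.776), and 0 to 1 leaving out 1 aorta (Nt5e without Ad-sham6, Adora2a without Ad-FAM3A6). For the other pathway genes that count, 5, became 3 with no filter, 1 with limma-voom, 1 with the block, and 0 to 5 leaving out 1 aorta. Of all genes, 3.81% were at that p with the block, 6.27% without both aortas, 7.37% with no filter, 4.44% with limma-voom and 3.07% to 8.6% leaving out 1 aorta. Relations past both adjusted thresholds numbered 5 of 80 with marker lists and 2 of 45 between the genes when clusters were not separated, against 1 and 0, a comparison chosen after seeing the data. The cause of these changes was not tested. Same-numbered aortas of the 2 groups had correlated deviations from -0.337 to 0.43 and 1 of 6 matched its own number best, so the numbers were not taken to pair them. DESeq2 called 10 genes of the whole table, and the other settings 0. In the check for distant aortas 0 of 22 groups had one, where chance gives 1.1. That count does not show that no aorta weighed on a result. Leaving out Ad-FAM3A4 turned the log2 fold change of P2rx1 from 0.22 to -0.25. With 6 and 7 aortas and standard errors of 0.21 to 0.44, small changes of these genes were not detectable, and 3 counts (0.14 to 0.221 CPM) limit the lowest levels.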
